A study of Mus musculus with 3 samples.

Results

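Cluster 11 was one of 15 numbered expression clusters that the submitters gave to sorted mouse thymocytes, and it was the cluster with the most RNA molecules per cell. Its members were all cells to which the deposited cell metadata assign cluster 11, and there were 383 of them among 12208 cells, or 3.14% (exact 95% interval 2.84 to 3.46). The cells came from thymuses of 8 female mice, 7 to 12 weeks old, that were pooled. All populations share the label C56Bl/6- Tcliβ x TCRα+/- x Foxp3-GFP, that is, a transgenic T cell receptor (TCR) β chain, 1 intact TCRα allele and a reporter of Foxp3, the transcription factor of regulatory T cells (Tregs). All were sorted on Vα2, the surface product of the TRAV14 gene family. The sort gave 6 populations. Double-positive thymocytes (DP, with CD4 and CD8) were taken from the whole thymus, and 5 populations were taken after depletion of CD8+ cells. The 5 were CD4 single-positive cells (CD4 SP), progenitors of Tregs with CD25 (CD25+ TRP) or with low Foxp3 (Foxp3lo TRP), CD73- Tregs and CD73+ Tregs. The labels print a single sort gate, CD4+ without CD25, Foxp3 or CD73, on every library, so the other populations were read from their names. A hashtag antibody marked the population of each cell, and RNA, hashtags and TCRα chains were sequenced from the same pool. The cells of cluster 11 were compared with the cells of the same population in the other 14 clusters. There was 1 pool and 1 sort per population, so no comparison has a replicate, and intervals cover counting error only, with cells of 1 clone counted as if independent. The rows of the expression tables, as used here, carry no gene names, so no gene is named, the sort was not checked against marker genes, and the cluster keeps its number in place of a cell type.

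The TCRα gene is assembled in DP thymocytes by joining a TRAV to a TRAJ segment. Joining starts at the TRAJ segments nearest the TRAV genes, which have the highest numbers, and later joins on the same allele replace the first by reaching further toward the constant gene. A high TRAJ number is therefore typical of early joins, and a cell with 1 intact allele carries room for 1 assembled chain at a time. The junction, called CDR3α, lies at the centre of the site that meets peptide and MHC, and DP cells whose receptor is tolerated and useful go on to become CD4 SP cells, some of which become Tregs.

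The sequences below carry the 2 repertoire patterns described later. The first set gives the germline TRAJ58 segment, the TRAJ with the highest number used here, at chr14:54157280-54157342 on the plus strand of GRCm38 (GENCODE M21), and the 5 chains joined to it with the most UMIs among DP cells of cluster 11. They are shown from the codon of the conserved cysteine to that of the conserved phenylalanine, as in the deposited contig table, and capitals mark bases that match neither the germline TRAV end nor the germline TRAJ start.
TRAJ58 germline: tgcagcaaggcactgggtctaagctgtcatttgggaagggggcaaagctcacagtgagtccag
DP chain with TRAV14-3 and TRAJ58: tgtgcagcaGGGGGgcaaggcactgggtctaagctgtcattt
DP chain with TRAV14-2 and TRAJ58: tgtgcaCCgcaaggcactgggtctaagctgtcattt
DP chain with TRAV14-1 and TRAJ58: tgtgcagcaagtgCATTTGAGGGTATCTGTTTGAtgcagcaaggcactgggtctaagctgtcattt
DP chain with TRAV14N-1 and TRAJ58: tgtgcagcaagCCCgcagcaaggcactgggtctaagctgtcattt
Second DP chain with TRAV14-1 and TRAJ58: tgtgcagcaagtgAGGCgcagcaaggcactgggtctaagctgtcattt
These chains ended in the same germline run and differed in the joined bases, and each was seen in 1 cell.

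The second set gives the CDR3α sequences carried by at least 5 cells of cluster 11, each in the nucleotide form found in the most of those cells, with capitals used in the same way, and a TRAJ13 sequence of 3 cells that is compared with them. Those with TRAJ12, TRAJ13 and TRAJ32 are named by their segment and the others by their amino acids. Each name stands for the amino acid sequence, and the cell counts given later cover all its nucleotide forms. The first TRAJ12 chain, for example, had 9 cells in 3 forms, and the form printed here was found in 6 of them.
First TRAJ12 chain: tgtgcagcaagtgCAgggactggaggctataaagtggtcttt
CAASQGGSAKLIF: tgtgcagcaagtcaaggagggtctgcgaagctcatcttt
TRAJ32 chain: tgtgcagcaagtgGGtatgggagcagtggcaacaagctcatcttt
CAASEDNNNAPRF: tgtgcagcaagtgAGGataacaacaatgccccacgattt
Second TRAJ12 chain: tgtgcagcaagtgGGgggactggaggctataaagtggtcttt
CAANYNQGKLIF: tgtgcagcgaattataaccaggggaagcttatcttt
CAASAGYSNNRLTL: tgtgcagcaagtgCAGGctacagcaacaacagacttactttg
TRAJ13 chain: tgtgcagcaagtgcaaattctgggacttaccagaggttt
In these printed forms, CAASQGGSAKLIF, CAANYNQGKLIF and the TRAJ13 chain held no added base, and the others held between 2 and 4.

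Cluster 11 was made almost wholly of 3 populations. CD25+ TRP gave 123 of its cells (32.1%), CD4 SP 121 (31.6%) and DP 104 (27.2%), while CD73+ Treg gave 31, CD73- Treg 3 and Foxp3lo TRP 1. Of the DP cells, 104 of 3021 lay in the cluster (3.44%, interval 2.82 to 4.16). In CD4 SP it was 121 of 2436 (4.97%, 4.14 to 5.91), and in CD25+ TRP 123 of 2503 (4.91%, 4.10 to 5.84). The share was lower in Foxp3lo TRP and both Treg populations. Foxp3lo TRP had 1 of 1393 (0.0718%, 0.00182 to 0.399), CD73- Treg 3 of 454 (0.661%, 0.136 to 1.92) and CD73+ Treg 31 of 2401 (1.29%, 0.879 to 1.83). The interval of each of these 3 lay below those of DP, CD4 SP and CD25+ TRP, and CD73+ Treg lay above Foxp3lo TRP. CD73- Treg could not be told apart from either. With 1 and 3 cells, Foxp3lo TRP and CD73- Treg are left out of the comparisons that follow.

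**Figure D1:**
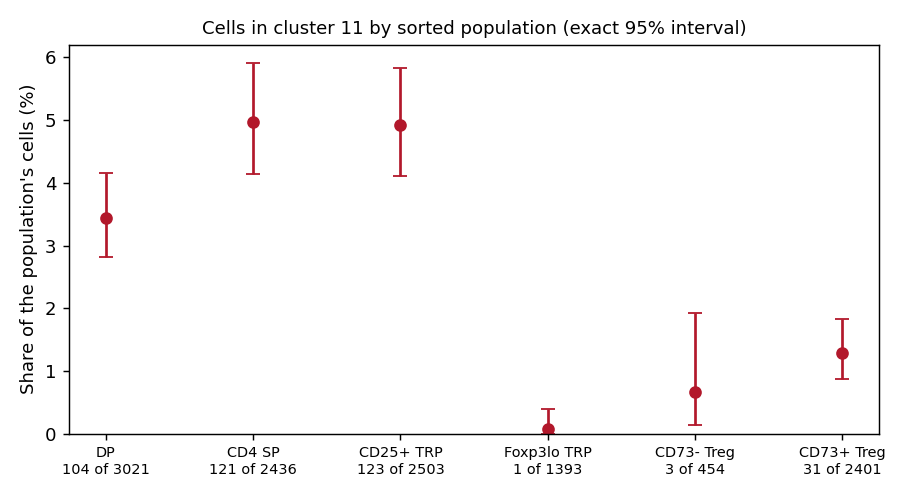
Share of each sorted population's cells (vertical axis, %) that lay in cluster 11, with exact 95% intervals; the counts stand under each population. DP, CD4 SP and CD25+ TRP lie at 3.44% to 4.97%, and Foxp3lo TRP and both Treg populations lie at 0.0718% to 1.29%.

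The cells of cluster 11 held more RNA molecules, counted as unique molecular identifiers (UMIs), than other cells of their own population. The median was 5542 UMIs in cluster 11 and 1435 in other clusters among DP cells, a ratio of 3.86. Among CD4 SP cells it was 5804 in cluster 11 and 2672 in other clusters (ratio 2.17), and among CD25+ TRP cells 6691 and 3182.5 (ratio 2.10). Among CD73+ Treg cells it was 7675 in cluster 11 and 2666 in other clusters (ratio 2.88). The lower quartile of cluster 11 lay above the upper quartile of the other clusters in all 4 populations, for example at 4806.5 against 1774 UMIs in DP. Over the whole cluster the median was 6079 UMIs, with the medians of the other 14 clusters between 1087 and 4281. The ranges still overlapped. Cluster 11 held CD4 SP cells with as few as 1296 and as many as 44547 UMIs, against 547 to 9175 in the other clusters.

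The part of the high-UMI cells that lay in cluster 11 differed between populations. Of DP cells with at least 5000 UMIs, a bound chosen after the data were seen, 68 of 71 were in cluster 11 (95.8%, interval 88.1 to 99.1). The same share was 49.1% in CD4 SP (78 of 159, 41.1 to 57.1), 21.5% in CD25+ TRP (97 of 451, 17.8 to 25.6) and 9.84% in CD73+ Treg (25 of 254, 6.47 to 14.2). In Foxp3lo TRP only 1 of 35 such cells (2.86%) and in CD73- Treg 2 of 46 (4.35%) belonged to it. At this bound the 4 intervals of DP, CD4 SP, CD25+ TRP and CD73+ Treg did not overlap, but it cut each population at a different point. Among the top 5% of each population by UMIs, the share was 65.8% in DP (57.7 to 73.3) and 56.6% in CD4 SP (47.3 to 65.5), which overlap. It was 32.5% in CD25+ TRP (24.5 to 41.5) and 16.5% in CD73+ Treg (10.4 to 24.4). Cells outside cluster 11 with at least 5000 UMIs lay mostly in cluster 7 in CD25+ TRP (193 cells) and in cluster 1 in CD4 SP (43 cells). In CD73+ Treg they lay mostly in clusters 7 and 3 (73 and 68 cells). A high UMI number alone thus did not define cluster 11 in these populations. In DP, 100 of the 152 cells in the top 5% lay in it, and its DP cells reached down to 1167 UMIs.

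More genes were detected per cell in cluster 11, and most of that difference went with the UMIs. The median number of gene rows with a UMI was 2185 in cluster 11 and 911 in other clusters in DP, 2082 and 1210 in CD4 SP, 2251 and 1375 in CD25+ TRP, and 2365 and 1178 in CD73+ Treg. When each cell was reduced to the number of rows expected at 1000 UMIs, the medians became 661 in cluster 11 and 688 in other clusters in DP, a ratio of 0.961. They were 605 and 583 in CD4 SP (ratio 1.04), 613 and 595 in CD25+ TRP (1.03), and 584 and 576 in CD73+ Treg (1.01). No cell of cluster 11 had fewer than 1000 UMIs, whereas 314 DP cells of other clusters did and were left out of this value. At equal UMIs the cells of cluster 11 thus spread their RNA over slightly fewer genes in DP, and over slightly more in CD4 SP and CD25+ TRP. In CD73+ Treg the intervals of the medians overlapped, at 564 to 599 in cluster 11 and 574 to 579 in other clusters.

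**Figure D2:**
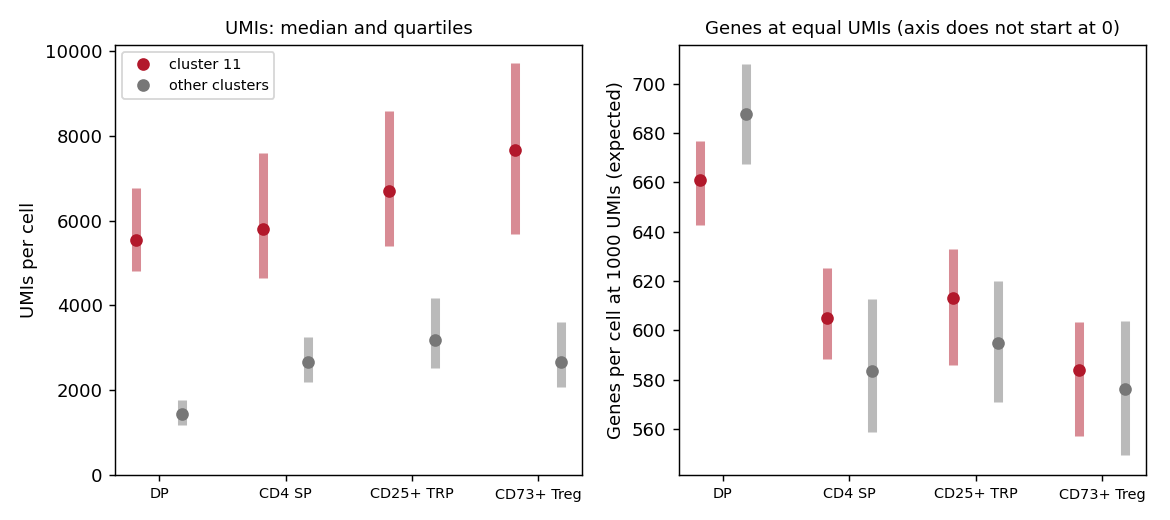
Left, UMIs per cell, and right, genes per cell expected at 1000 UMIs, in cluster 11 (red) and other clusters (grey) of 4 populations; points are medians and bars run from the lower to the upper quartile. The quartile bars of UMIs are separated in every population, while at equal UMIs the medians differ by ratios of 0.961 to 1.04.

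A TCRα chain was found about as often in cluster 11 as elsewhere in 3 of the populations. At least 1 productive TRA chain, meaning an in-frame chain without a stop, was found in 47.1% of cluster 11 cells and 43.2% of other cells in DP, in 84.3% and 79.3% in CD4 SP, and in 78.0% and 74.2% in CD25+ TRP. These intervals overlapped. In CD73+ Treg the share was 77.4% in cluster 11 (24 of 31, interval 58.9 to 90.4) and 46.4% in other clusters (44.3 to 48.4). Among CD73+ Treg cells of other clusters whose UMIs lay between the quartiles of cluster 11, it was 76.8% (69.3 to 83.3), an interval that lies within that of cluster 11. In cells with 1 chain, the TCRα library gave a median of 40 UMIs for it in cluster 11 and 13 in other clusters in DP, 39 and 18 in CD4 SP, 45.5 and 21 in CD25+ TRP, and 45 and 19 in CD73+ Treg.

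Cells with 2 productive TRA chains were uncommon in cluster 11. They made up 14 of the 275 cells with at least 1 chain (5.09%, interval 2.81 to 8.39), against 316 of 7037 in the other clusters (4.49%, 4.02 to 5.00). The share was 8.16% in DP (4 of 49, 2.27 to 19.6), 2.94% in CD4 SP (3 of 102, 0.611 to 8.36), 6.25% in CD25+ TRP (6 of 96, 2.33 to 13.1) and 4.17% in CD73+ Treg (1 of 24, 0.105 to 21.1). In the other clusters it was 3.02%, 4.63%, 4.13% and 5.91% in the same order of populations. Cluster 11 and the other clusters could not be told apart in any of the 4 populations by these intervals.

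The picture differed at matched UMIs. In CD4 SP, 2 chains were found in 2.94% of cluster 11 cells, against 50.4% (58 of 115, interval 41.0 to 59.9) of cells of other clusters with UMIs between the quartiles of cluster 11. In CD25+ TRP the share was 6.25% in cluster 11 and 20.7% (38 of 184, 15.0 to 27.2) in the matched cells. In both populations the interval of cluster 11 lay below. In CD73+ Treg it was 4.17% in the 24 cells of cluster 11 and 26.7% (31 of 116, 18.9 to 35.7) in the matched cells, with overlapping intervals. Only 4 DP cells of other clusters had such UMI numbers, too few to compare. Thus in CD4 SP and CD25+ TRP the cells of cluster 11 seldom carried 2 chains, while cells with as many UMIs in other clusters more often did. How doublets were handled before deposit is not given in the sources used here, and each cell has 1 hashtag class. The part of 2 cells sharing a barcode in these shares was not tested.

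In the 14 cells of cluster 11 with 2 chains, the chain with fewer UMIs had a median of 0.209 times the UMIs of the other, against 0.235 in the 316 such cells of other clusters. Its UMI number was at least 5 in 13 of the 14 cells. In 3 of the 4 DP cells the minor chain used TRAJ58, with 9, 11 and 10 UMIs beside 60, 13 and 50 for the major chain. The major chains of these 3 cells used TRAJ53, TRAJ22 and TRAJ57. The fourth DP cell had a second chain of 1 UMI.

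**Figure D3:**
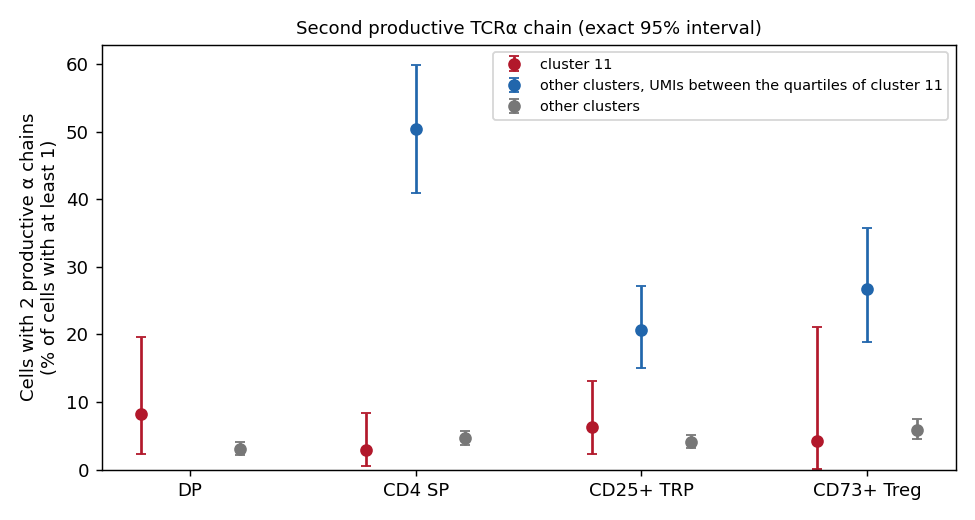
Share of cells with 2 productive TCRα chains among cells with at least 1 (vertical axis, %), with exact 95% intervals, in cluster 11 (red), in cells of other clusters with UMIs between the quartiles of cluster 11 (blue; DP has too few) and in all cells of other clusters (grey). Cluster 11 lies at 2.94% to 8.16%, and the cells of matched UMIs lie at 20.7% to 50.4%.

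The clearest receptor difference was in DP, where cluster 11 cells used TRAJ segments close to the TRAV genes. Among cells with exactly 1 productive chain, a TRAJ number of 40 or higher was used by 37 of 45 DP cells of cluster 11 (82.2%, interval 67.9 to 92.0) and by 348 of 1221 DP cells of other clusters (28.5%, 26.0 to 31.1). The median TRAJ number was 53 in cluster 11 (quartiles 44 and 58) and 27 in other clusters (15 and 42). A number of 48 or higher was used by 68.9% of the cluster 11 cells (31 of 45, 53.4 to 81.8) and by 15.8% of the others (13.8 to 17.98). Neither pair of intervals overlapped.

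The other DP clusters stood in an order, with cluster 11 above the 3 that hold most DP cells. TRAJ numbers of 40 or higher made up 53.9% in DP cells of cluster 4 (48.5 to 59.2), 21.7% in cluster 6 (18.4 to 25.3) and 4.67% in cluster 8 (2.26 to 8.43). In the small cluster 13 all 14 DP cells had such a number, and its interval (76.8 to 100) overlapped that of cluster 11. Among DP cells of other clusters with at least 2000 UMIs, a bound chosen after the data were seen, the share was 46.4% (40.04 to 52.8), below that of cluster 11. Among cells of cluster 4 with at least 2000 UMIs it was 64.3% (51.9 to 75.4), which overlapped that of cluster 11. It also overlapped the 53.9% (48.5 to 59.2) of all cells of cluster 4, of which these cells are a part. TRAJ numbers in DP thus differed between clusters, and whether they moved with UMI number apart from cluster was not tested.

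**Figure D4:**
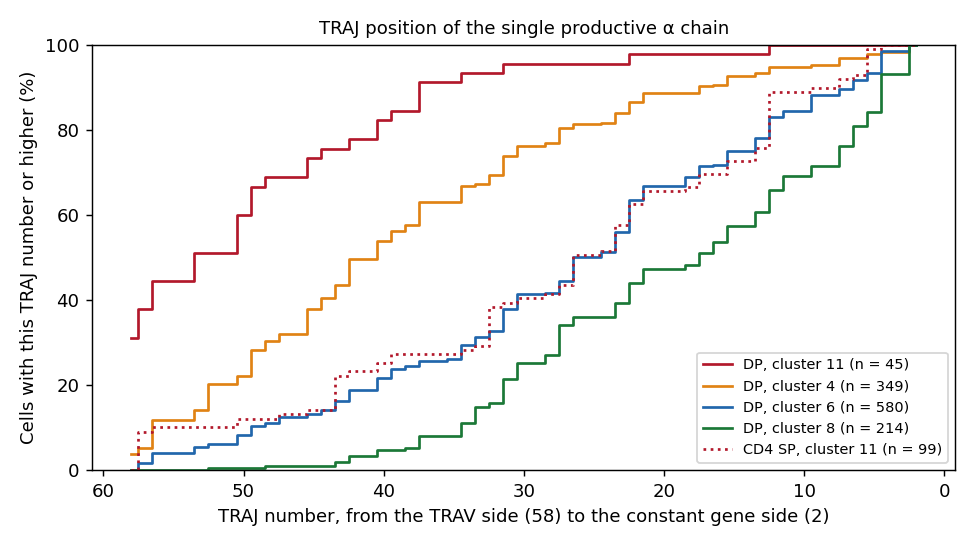
Cumulative share of cells (vertical axis, %) by TRAJ number of the single productive α chain, read from the TRAV side at the left to the constant gene side at the right, for DP cells of clusters 11, 4, 6 and 8 and for CD4 SP cells of cluster 11 (dotted). DP cells of cluster 11 reach 82.2% by TRAJ40, against 53.9%, 21.7% and 4.67% in clusters 4, 6 and 8, and CD4 SP cells of cluster 11 reach 25.3%.

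TRAJ58 was the segment most used in DP cells of cluster 11. It was found in 14 of 45 cells (31.1%, interval 18.2 to 46.6) and in 20 of 1221 DP cells of other clusters (1.64%, 1.00 to 2.52). Most of those 20 lay in 2 clusters. Cluster 13 had 6 in 14 DP cells (42.9%, 17.7 to 71.1), an interval that overlaps that of cluster 11, and cluster 4 had 13 in 349 (3.72%, 2.00 to 6.29), below it. Cluster 6 had 1 in 580, and none was found in the 214 cells of cluster 8, which allows up to 1.40%. The 14 cells carried 14 different junctions, 5 of which are printed above, so that no single clone gave this share. TRAJ50 followed with 4 cells (8.89%, against 1.80% in other clusters), then TRAJ37, TRAJ49, TRAJ53, TRAJ56 and TRAJ57 with 3 cells each (6.67%, against 2.78%, 2.87%, 1.56%, 3.11% and 1.47% in other clusters). The interval of these 6 segments in cluster 11 reached down to 2.48% or lower and overlapped that of the other clusters. Over all 43 TRAJ segments, TRAJ58 was the only one whose intervals were separated in DP.

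The V segments of these DP cells differed too. TRAV14-2 was used by 28.9% of them (13 of 45, 16.4 to 44.3) and by 11.1% of DP cells of other clusters (9.43 to 13.04), and TRAV14-3 by 26.7% (12 of 45, 14.6 to 41.9) and 12.2% (10.4 to 14.2). In the annotation TRAV14-1, TRAV14-2 and TRAV14-3 start at positions 53554022, 53640701 and 53763173 of chromosome 14, nearer to the TRAJ segments than the D and N copies. TRAV14-1 did not follow, with 17.8% in cluster 11 and 16.7% in other clusters, nor did TRAV14N-1, with 11.1% and 12.2%, and TRAV14N-2, with 6.67% and 7.04%. TRAV14D-3-DV8 was used by 1 of the 45 cells (2.22%, 0.0562 to 11.8) and by 17.4% of the others (15.4 to 19.7). Over all 54 TRAV segments of DP cells, TRAV14-2, TRAV14-3 and TRAV14D-3-DV8 were the only ones whose intervals were separated. The TRAV14 copies are close in sequence, and their assignment was left as deposited. A TRAV outside the family was found in 1 of 45 cells of cluster 11 (2.22%, 0.0562 to 11.8) and in 8.93% of DP cells of other clusters (7.39 to 10.7), which overlap.

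Outside DP the TRAJ position of cluster 11 resembled that of the same population more closely. TRAJ numbers of 40 or higher made up 25.3% in CD4 SP (25 of 99, interval 17.1 to 35.0), against 17.9% in its other clusters (16.1 to 19.8), and 24.4% in CD25+ TRP (22 of 90, 16.0 to 34.6), against 15.7% (13.95 to 17.5). In CD73+ Treg they made up 13.04% (3 of 23, 2.78 to 33.6), against 16.3% (14.1 to 18.7). None of these pairs was separated. Over the 5 populations other than DP, the share was 23.6% in cluster 11 (51 of 216, 18.1 to 29.8) and 16.4% in other clusters (15.4 to 17.4), and these intervals did not meet, although the mix of populations differed between the 2 sides. The DP cells of cluster 11, at 67.9% or above, lay apart from the cluster 11 cells of all 3 other populations.

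Single segments also differed in use among the 216 cells of the other populations, pooled as above. The mix of populations again differed between cluster 11 and the other clusters, and its part in these shares was not tested. TRAJ43 was used by 9.72% of the cluster 11 cells (21 cells, 6.12 to 14.5) and by 3.53% of the other cells (3.06 to 4.05). TRAJ57 was used by 6.02% (13 cells, 3.24 to 10.1) and 2.53% (2.13 to 2.98), and TRAJ12 by 9.26% (20 cells, 5.75 to 13.9) and 5.05% (4.49 to 5.67). A few CDR3α sequences carried these segments. A single sequence in 1 nucleotide form, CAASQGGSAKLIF, made up 9 of the 13 TRAJ57 cells, 2 sequences made up 15 of the 20 TRAJ12 cells, and 2 made up 11 of the 21 TRAJ43 cells. TRAJ26, at 8.33% in cluster 11 and 6.64% in other clusters, TRAJ13, at 6.02% and 9.04%, and TRAJ23, at 6.02% and 8.15%, had overlapping intervals.

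Among the V segments of these cells, TRAV14-1 was less used in cluster 11, at 10.2% (6.49 to 15.0) against 18.5% (17.5 to 19.6). TRAV14D-2 was more used, at 6.94% (15 cells, 3.94 to 11.2) against 2.45% (2.06 to 2.90), and its 15 cells carried 12 different CDR3α. The other V segments most used in cluster 11 had overlapping intervals. TRAV14D-3-DV8 stood at 23.6% in cluster 11 and 27.6% in other clusters, TRAV14-2 at 14.8% and 10.3%, TRAV14N-1 at 13.4% and 14.8%, and TRAV14N-2 at 12.5% and 9.62%. Over the 43 TRAJ and 36 TRAV segments of these populations, the 5 given here with separated intervals were all there were. The differing mix of populations limits the TRAV shares in the same way. No cell of these 216 used a TRAV outside the TRAV14 family, which allows a share of up to 1.39%, against 0.873% in the other clusters.

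The CDR3α sequences of DP cells in cluster 11 were seldom found elsewhere. Of the 45, 37 (82.2%, interval 67.9 to 92.0) had a CDR3α seen in no other cluster of any population, against 58.4% of DP cells of other clusters (55.6 to 61.2) having one seen in no other cell of those clusters. The single DP clusters did not all lie apart. The same share was 50.5% in cluster 6 (46.4 to 54.7), below cluster 11, but 67.9% in cluster 4 (62.7 to 72.8), 68.2% in cluster 8 (61.5 to 74.4) and 78.6% in cluster 13 (11 of 14, 49.2 to 95.3), which overlap it. In other populations 5 of 45 were found (11.1%, 3.71 to 24.1), against 36.2% of DP cells of other clusters (33.5 to 39.0). By cluster this was 45.0% in cluster 6 (40.9 to 49.2), above cluster 11, and 23.2% in cluster 4 (18.9 to 28.0), 28.04% in cluster 8 (22.1 to 34.6) and 21.4% in cluster 13 (4.66 to 50.8), all overlapping it. With CD4 SP cells alone, 3 of 45 were shared (6.67%, 1.40 to 18.3), against 11.5% in DP cells of cluster 4 (8.32 to 15.3), 27.8% in cluster 6 (24.1 to 31.6) and 17.3% in cluster 8 (12.5 to 23.0). The share was thus below that of cluster 6, and could not be told apart from clusters 4 and 8. When a match also required the same nucleotides, V and J gene, 1 in 45 was found in other populations (2.22%), against 10.6% of DP cells of other clusters. The interval of 1 in 45, 0.0562 to 11.8, covers that value, so the 2 could not be told apart.

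In CD4 SP the sharing ran the other way. A CDR3α present in the other CD4 SP cells was carried by 73 of 99 cluster 11 cells (73.7%, 63.9 to 82.1), against 60.3% of the other CD4 SP cells (57.9 to 62.6). CD4 SP cells of other clusters at matched UMIs had 71.9% (58.5 to 83.0), an interval that overlaps that of cluster 11. In CD25+ TRP the shares were 57.8% in cluster 11 and 56.5% in other clusters, and in CD73+ Treg 47.8% and 50.9%. The overlap index of Morisita, which is 0 for repertoires with no sequence in common and about 1 for samples of a single repertoire, was 0.552 between CD4 SP cells of cluster 11 and the other CD4 SP cells. It was 0.715 between CD25+ TRP cells of cluster 11 and the other CD25+ TRP cells. Between the CD25+ TRP and CD4 SP cells of cluster 11 it was 0.904, against 0.783 between those populations in the other clusters. The index weighs how often each sequence occurs, whereas the shares above count any match. No interval was made for it, and whether its values differ was not tested. Cluster 11 gave 99 CD4 SP and 90 CD25+ TRP cells to it, against 1750 and 1693 from the other clusters.

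Within the cluster, 261 cells with 1 chain carried 192 different CDR3α. Of these, 26 occurred in at least 2 cells, 21 of the 26 in more than 1 population, and 20 of the 26 in more than 1 nucleotide form, so that these 20 were not copies of 1 joined chain. Of the 45 DP cells, 1 carried a repeated CDR3α. The 13 sequences seen in at least 3 cells covered 69 cells, and since they were picked for being frequent in cluster 11, their values are a description.

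These sequences were counted by their amino acids, in all their nucleotide forms. The first TRAJ12 chain was found in 7 of 99 CD4 SP cells of cluster 11 (7.07%, 2.89 to 14.03) and in 41 of 1750 other CD4 SP cells (2.34%, 1.69 to 3.17), which overlap. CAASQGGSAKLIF (TRAJ57) was found in 7 of 99 (7.07%, 2.89 to 14.03) and 26 of 1750 (1.49%, 0.973 to 2.17). The TRAJ32 chain was carried by 5 of 99 (5.05%, 1.66 to 11.4) and 21 of 1750 (1.20%, 0.744 to 1.83) in CD4 SP, which overlap, and by 3 of 90 (3.33%, 0.693 to 9.43) and 4 of 1693 (0.236%, 0.0644 to 0.604) in CD25+ TRP. The second TRAJ12 chain was found in 5 of 99 (5.05%, 1.66 to 11.4) and 19 of 1750 (1.09%, 0.655 to 1.69) CD4 SP cells, which overlap too. A higher share in cluster 11 follows from how these sequences were picked. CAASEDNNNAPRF (TRAJ43) was carried by 4 of 90 CD25+ TRP cells of cluster 11 (4.44%, 1.22 to 10.99) and 6 of 1693 other CD25+ TRP cells (0.354%, 0.130 to 0.770). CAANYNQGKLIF (TRAJ23) was found in 4 of 99 (4.04%, 1.11 to 10.02) and 8 of 1750 (0.457%, 0.198 to 0.899) CD4 SP cells. In CD25+ TRP, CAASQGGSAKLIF was found in 2.22% of cluster 11 cells and 0.650% of other cells, and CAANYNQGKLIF in 1.11% and 0.295%. In CD4 SP, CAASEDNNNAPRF was found in 3.03% of cluster 11 cells and 0.571% of other cells. The intervals of each of these added pairs overlapped. CAASAGYSNNRLTL (TRAJ7) followed the Treg side, with 4 of 23 CD73+ Treg cells of cluster 11 (17.4%, 4.95 to 38.8) and 68 of 1034 others (6.58%, 5.14 to 8.26), which overlap, and with none of the CD4 SP cells of cluster 11 or of other clusters, which allows up to 3.03% and 0.171%. The TRAJ13 chain printed above was found in 1 of 99 (1.01%, 0.0256 to 5.50) and 112 of 1750 (6.40%, 5.30 to 7.65) CD4 SP cells, with intervals that overlap. Another TRAJ13 sequence of 3 cells, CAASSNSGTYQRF, went the other way. It was found in 1.01% of cluster 11 cells and 0.686% of other cells in CD4 SP, and in 2.22% and 0.413% in CD25+ TRP. Its intervals overlapped in both populations.

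Expression was described from UMI counts summed over the cells of each population, scaled to CPM, that is, to each sum's total UMIs, with the log2 ratio of cluster 11 to other clusters after adding 1 CPM. The cluster was itself made from these counts, so the values are a description and no test. Rows with at least 50 CPM on either side were used, and a row counts as higher or lower from 2-fold. In DP, 522 of 4006 rows were higher in cluster 11 (13%) and 681 lower (17%). In CD4 SP, 282 of 3186 were higher (8.85%) and 99 lower (3.11%), and in CD25+ TRP 274 of 3230 were higher (8.48%) and 100 lower (3.1%). In CD73+ Treg, 359 of 3184 were higher (11.3%) and 231 lower (7.26%). DP was the population in which cluster 11 differed most, with a root-mean-square log2 ratio of 1.56, against 1.13 in CD4 SP, 1.04 in CD25+ TRP and 1.18 in CD73+ Treg. Counting error alone would give 0.24, 0.19, 0.17 and 0.32 in that order.

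The direction of the DP difference depended on the scaling. The median log2 ratio over all DP rows was -0.21 when scaled to total UMIs, 0.09 with trimmed-mean scaling and 0.15 with median-of-ratios scaling. With these, 591 and 648 DP rows were higher and 372 and 347 lower. In the other 3 populations the median stayed between -0.04 and 0.04 under the 3 scalings.

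The higher rows were shared between populations more than the lower ones. Of 640 rows at least 2-fold higher in at least 1 of the 4 populations, 194 were higher in all 4, and of 884 at least 2-fold lower in at least 1, 14 were lower in all 4. Of the rows higher in CD4 SP, 87.2% were also higher in DP, while 47.1% of those higher in DP were also higher in CD4 SP. Of the rows lower in CD4 SP, 64.6% were also lower in DP, and 9.40% of those lower in DP were also lower in CD4 SP. Only 7 rows were higher in 1 population and lower in another. Across 2555 rows, the Pearson correlation of log2 ratios between populations was 0.900 to 0.951, a description across rows that are not independent and that share the cluster definition. With trimmed-mean and median-of-ratios scaling, 200 and 202 rows were higher in all 4.

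**Figure D5:**
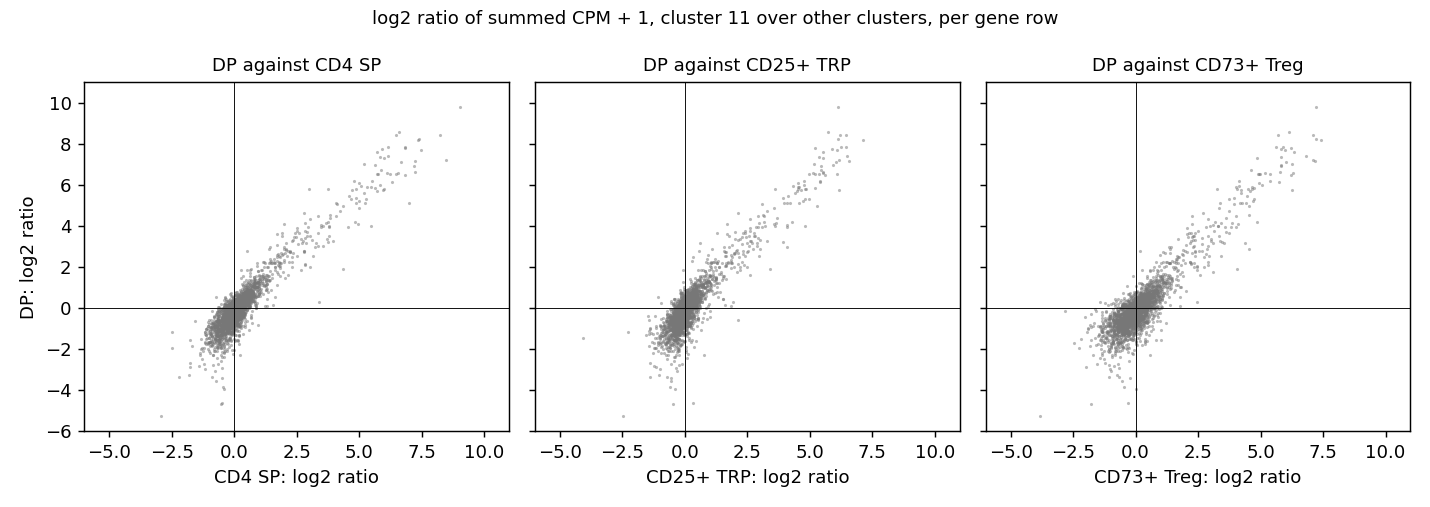
log2 ratio of summed CPM plus 1, cluster 11 over other clusters, in DP (vertical axis) against CD4 SP, CD25+ TRP and CD73+ Treg (horizontal axes), with 1 point per gene row. Rows at high ratios in DP are at high ratios in the other populations, and the spread below 0 is wider in DP.

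An example is the row with the largest median ratio among those higher in all 4 populations and with more than 3 UMIs in every sum, which carries no name in the tables. In DP it had 1068 UMIs, or 1745 CPM, in cluster 11 and 18 UMIs, or 3.98 CPM, in other clusters. It had 480 and 0.611 CPM in CD4 SP, 619 and 7.38 CPM in CD25+ TRP, and 462 and 2.34 CPM in CD73+ Treg, cluster 11 being first in each pair. At least 1 UMI of it was found in 93.3% of the DP cells of cluster 11 and 0.617% of other DP cells, in 47.1% and 0.173% of CD4 SP cells, in 61.0% and 1.05% of CD25+ TRP cells, and in 64.5% and 0.717% of CD73+ Treg cells. In Foxp3lo TRP the single cell of cluster 11 lacked it and 0.503% of other cells had it, and in CD73- Treg 1 of 3 and 0.887% had it. In cluster 13 it was found in 13 of 83 cells (15.7%, interval 8.61 to 25.3). The row was chosen for its ratio, so its low level outside cluster 11 is a description.

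The 194 shared rows, chosen for being higher, took a larger part of the UMIs of cluster 11 in DP than in the other 3 populations. They held 11.8% of all UMIs in DP cells of cluster 11 and 1.5% in other DP cells. They held 5.60% and 1.15% in CD4 SP, 6.16% and 1.49% in CD25+ TRP, and 5.75% and 1.24% in CD73+ Treg. Per cell, the median in cluster 11 was 12.2% in DP (quartiles 9.89 and 14.2), 4.09% in CD4 SP (2.50 and 7.87), 5.47% in CD25+ TRP (2.78 and 8.47) and 5.26% in CD73+ Treg (3.04 and 7.42). The cells of cluster 11 thus varied widely in all 4 populations, in DP from 2.05% to 16.6%. In CD4 SP the lowest cell had 1.18%, within the range of other CD4 SP cells, which ended at 2.60%.

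A share of at least 5%, a bound chosen after the data were seen, was reached by 242 of 383 cells of cluster 11 and by 23 of 11825 cells of other clusters. Of these 23, 22 lay in cluster 13 and 1 in cluster 4. Cluster 13, a group of 83 cells, had a median of 3.28%, and the other 13 clusters had medians between 0.953% and 1.69%. Clusters 11, 7 and 13, with the most UMIs per cell, were also those highest in these rows. They had medians of 6079, 4281 and 3950 UMIs, and 7.01%, 1.69% and 3.28% of them in the shared rows. The other clusters did not follow this order. Cluster 8, with the lowest median at 1087 UMIs, had 1.54%, above the 1.32% of cluster 14 with 3630.5 UMIs. The rows were picked for being high in cluster 11, and the part of UMI number in these shares was not tested.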

How the data were processed

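UMI counts for 14790 gene rows (164 without a UMI) and 12208 cells (34190869 UMIs) were deposited by the authors, with cluster and hashtag class per cell. A second deposited matrix holds natural log values, equal to ln(1 + 10000 × count/total) within 6.2e-15, used only as an alternative. The deposited contig table gives UMI counts, segments and CDR3 for 21598 contigs in 12771 barcodes, of which 7379 barcodes are in the expression matrix. Joining by barcode gave the same clonotype in 6982 of 6982 cells. Per the labels' protocols, libraries were made with a 10x Genomics 5' kit. Cell Ranger 3.1.0 and Seurat 3.1.1, with the builds mm10 and GRCm38, are named by the submitters' processing notes, and the filters on cells and any removal of doublets are not stated there. No doublet caller was run. A hashtag class called Treg, with no mention of CD73, was taken as CD73- Treg.

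Members and lists were chosen with earlier results of these data known. Shares have exact Clopper-Pearson 95% intervals, covering counting error only, and a count of 0 allows a share of 3 counts. UMIs are molecules of a cell, not replicates, so no test was run. Chains were taken from productive TRA contigs, and repertoires from cells with exactly 1. Cells were not thinned in the contig table. Instead, other cells with UMIs between the quartiles of cluster 11 of the same population (at least 20) were compared. Genes at 1000 UMIs are exact expectations under sampling without replacement. Expression sums were scaled to CPM, with a prior of 1 CPM and a minimum of 50 CPM on either side. As rows carry no names, the planned naming of genes and the marker lists could not be applied. TRAJ and TRAV segments named are the 5 most used in cluster 11, ties included, in DP and in the other populations, and TRAV14D-3-DV8 in DP and TRAV14D-2 in the others were chosen after their values were seen. CDR3α named are from those in at least 3 cells of cluster 11. Added bases were found against GENCODE M21 (GRCm38) segments. Python 3.11.15, NumPy 2.4.6, pandas 2.3.3, SciPy 1.17.1 and, for scaling factors, R 4.3.3 with edgeR 4.0.16 were used, and scripts were tested on simulated data.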

Additional observations from a re-analysis of the deposited data

How the results depend on the processing

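Of 247 recomputed values, 168 stayed within the interval of the reported value (for expression, within 1.5 times) and 79 moved, and none of these comparisons has a test. The causes were not tested unless the setting itself sets them, as a looser match or minimum does. No paired analysis was possible because each population is 1 sort of 1 pool.

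Leaving out the top 5% of cells by UMIs lowered the share in cluster 11 to 0.139% of DP, 2.25% of CD4 SP, 3.45% of CD25+ TRP, 0% of Foxp3lo TRP and 0.482% of CD73+ Treg cells. Among cells with at least 5000 UMIs (chosen after seeing the data) it was 95.8%, 49.1%, 21.5%, 2.86%, 4.35% and 9.84% in the 6 populations from DP to CD73+ Treg, and among CD73+ Treg cells with a productive chain it was 2.14%. The DP ratio of UMIs was 3.57 in cells with a productive chain, and that of genes 0.973 at 500 and 0.984 at 2000 UMIs.

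No share of cells with 2 chains moved in cluster 11. In other clusters it was 1.30%, 3.67%, 3.07%, 2.74% and 2.67% of all cells in DP, CD4 SP, CD25+ TRP, CD73+ Treg and all populations, and 1.63%, 3.56%, 3.25%, 3.04% and 2.99% with chains of at least 5 UMIs. At matched UMIs it was 50.4%, 20.7% and 26.7% in CD4 SP, CD25+ TRP and CD73+ Treg, and with at least 5000 UMIs (chosen after seeing the data) 65.8%, 20.1%, 23.4% and, over all populations, 28.4%. In DP, too few cells had matched UMIs, for chains and expression alike.

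A TRAJ number of 30 or higher was used by 95.6% of DP cells of cluster 11 and 49.1% of other DP cells, and by 39.8% of cluster 11 cells of other populations. For a number of 40 or higher, other DP cells had 46.4% with at least 2000 UMIs and 53.9%, 21.7% and 4.67% in clusters 4, 6 and 8, all chosen after seeing the data.

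Matching CDR3 by nucleotides, V and J gene lowered sharing with other clusters of the same population to 2.22% in cluster 11 and 4.83% in other clusters in DP, 55.6% and 38.9% in CD4 SP, 27.8% and 32.6% in CD25+ TRP, and 34.4% in other clusters in CD73+ Treg. With other populations it became 2.22% in cluster 11 and 10.6% in other clusters in DP, 50.5% and 39.1% in CD4 SP, 50.0% and 41.3% in CD25+ TRP, and 33.9% in other clusters in CD73+ Treg. The excess of CD4 SP cluster 11 in its own population and the deficit of DP cluster 11 thus kept their direction. In DP the cluster 11 share was 1 of 45 cells both times, with an interval (0.0562 to 11.8) that covers both values of the other clusters. CD25+ TRP turned below its other clusters for sharing within the same population and stayed above them for sharing with other populations. Its reported shares could not be told apart on either measure. They were 57.8% (46.9 to 68.1) and 56.5% (54.1 to 58.9) within the population, and 72.2% (61.8 to 81.1) and 67.3% (65.0 to 69.5) with other populations. No direction is therefore read from them.

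With a minimum of 20 CPM, 497, 470 and 623 rows were higher in CD4 SP, CD25+ TRP and CD73+ Treg and 301 in all 4, and 1390, 270, 263 and 662 were lower in DP and these 3, and 33 in all 4. With no minimum, 1299, 1116, 1004 and 1410 were higher in DP, CD4 SP, CD25+ TRP and CD73+ Treg and 451 in all 4, and 3040, 1181, 1235 and 2608 were lower and 103 in all 4. Rows lower in DP were 372 with trimmed-mean and 347 with median-of-ratios scaling, and those lower in all 4 were 9 and 8. A prior of 10 CPM left 58 rows lower in CD4 SP and 4 in all 4, and matched UMIs left 125 lower in CD73+ Treg. The authors' normalized values and leaving out cells with 2 chains moved none of these counts by over 1.5 times.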

Other observations

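Contigs of the TCRβ chain, which the libraries were not enriched for, were also found. A contig of TRBV19, the segment of the transgenic β chain, was present in 38.9% of cluster 11 cells (149 of 383, interval 34.0 to 44.0) and in 11.3% of other cells (10.7 to 11.9). The share in cluster 11 was 38.5% of DP, 35.5% of CD4 SP, 41.5% of CD25+ TRP and 41.9% of CD73+ Treg cells. Cells of other clusters with matched UMIs had 38.7% in CD4 SP, 31.3% in CD25+ TRP and 37.1% in CD73+ Treg, with intervals that overlap those of cluster 11. A contig of another TRBV was present in 19.3% of cluster 11 cells (15.5 to 23.6) and in 4.96% of other cells (4.58 to 5.37), and in DP it was present in 26.9% (28 of 104, 18.7 to 36.5) and 4.83% (4.08 to 5.68), with too few cells of matched UMIs. It was present in 17.4%, 16.3% and 16.1% of cluster 11 cells in CD4 SP, CD25+ TRP and CD73+ Treg, against 18.5%, 10.3% and 9.27% of other cells with matched UMIs.

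The junctions of DP cells in cluster 11 had the same medians as those of other DP cells, with a larger SD. Bases that match neither germline segment averaged 3.73 ± 3.60 in DP cells of cluster 11 (SD over 45 cells) and 2.89 ± 2.09 in other DP cells, with a median of 3 on both sides. The CDR3α had a median of 14 residues on both sides in DP, with an SD of 2.24 in cluster 11 and 1.35 in other clusters. The larger SDs rest in part on single chains. Among the TRAJ58 chains of these DP cells, 1 of 66 bases held 21 added bases, and another was 21 bases long in all. The SDs without them were not computed. A nonproductive TRA contig was found in 2.61% of cluster 11 cells and in 2.61% of other cells.

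Distances between populations were larger inside cluster 11 than in other clusters, except between CD25+ TRP and CD4 SP. The root-mean-square log2 ratio of summed expression over 4549 rows was 1.23 between CD4 SP and DP cells of cluster 11 and 1.12 between those populations in other clusters. It was 0.47 and 0.52 between CD25+ TRP and CD4 SP, 0.87 and 0.64 between CD73+ Treg and CD25+ TRP, and 0.97 and 0.73 between CD73+ Treg and CD4 SP. Between CD25+ TRP and DP it was 1.17 and 1.13, and between CD73+ Treg and DP 1.52 and 1.35. Counting error alone would give 0.35 and 0.14, 0.32 and 0.12, 0.46 and 0.12, 0.47 and 0.13, 0.34 and 0.13, and 0.48 and 0.14 in that order. It thus makes up more of each value in cluster 11.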
